A study of Mus musculus with 26 samples.

Results

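Transcript levels of 10 receptor genes through which growth factors and cytokines act on myeloid cells and mast cells were examined by RNA sequencing of bone marrow progenitors and cultured mast cells from wild-type (WT) and Prss57-/- (KO) mice. The genes were listed by name and are Kit, Csf1r, Csf2ra, Csf2rb, Csf2rb2, Csf3r, Il3ra, Il5ra, Il1rl1 and Crlf2, 10 of the 52636 genes in the deposited files. Prss57 encodes neutrophil serine protease 4 (NSP4), and the KO mice carried a germline deletion of its exon 2, made in C57BL/6N embryonic stem cells, so that every cell of the animal lacked the protease. The 26 libraries formed 6 groups. Common myeloid progenitors (CMPs) gave 4 WT and 4 KO libraries and granulocyte-macrophage progenitors (GMPs) another 4 and 4, all from female mice. Wild-type and KO mice were littermates. Both populations were sorted as lineage-negative, SCA-1-negative, CD117-positive and CD34-positive cells, with low CD16/32 for CMPs and high CD16/32 for GMPs. Bone marrow-derived mast cells (BMMCs) gave 5 WT and 5 KO libraries. They came from male mice, were grown from sorted GMPs with IL-3 and stem cell factor, and carry the label P3, which the labels do not explain. The age of the mice sequenced is not given in the sources used here.

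These receptors belong to a few structural families. Csf2ra, Il3ra and Il5ra encode the ligand-binding alpha chains for GM-CSF, IL-3 and IL-5, and each alpha chain pairs with a beta chain that carries the signal. Csf2rb encodes the beta chain that these alpha chains share, and Csf2rb2 encodes the second beta chain of the mouse, which works with the IL-3 alpha chain. Csf3r encodes the G-CSF receptor of the neutrophil lineage. Csf1r and Kit are receptor tyrosine kinases. Csf1r binds CSF-1 and IL-34 and is the growth factor receptor of the macrophage lineage, and Kit, the protein CD117, binds stem cell factor and keeps mast cells alive. Il1rl1 encodes ST2, which binds IL-33 together with the partner chain Il1rap, and Crlf2 encodes the receptor chain for TSLP, which pairs with Il7r.

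The libraries were first checked against their labels. Prss57 had 18064 to 26556 reads in the WT GMP libraries and 6 to 25 in the KO GMP libraries, 2261 to 3926 reads in WT CMPs and 1 read in each KO CMP library, and 2 to 27 reads in WT BMMCs and 0 in KO BMMCs. The 6 GMP marker genes (Elane, Mpo, Prtn3, Ctsg, Fcgr3 and Cebpe) summed to 25597 to 37616 normalized RPKM in GMPs and to 3833 to 9617 in CMPs, and Mpo, myeloperoxidase, was the most abundant of them in every GMP library. Fcgr3 encodes CD16, on which the populations were sorted, so it is no separate check of the label. Normalized RPKM is the authors' read count per gene, divided by gene length and by a size factor for the library. The 7 mast cell markers (Cpa3, Cma1, Tpsb2, Mcpt4, Fcer1a, Ms4a2 and Hdc) summed to 24714 to 74376 normalized RPKM in BMMCs against 413 to 649 in GMPs and 87.9 to 129 in CMPs. The BMMC libraries therefore carried their label's markers. They also held transcripts of macrophages and dendritic cells, whose 12 markers summed to between 1180 and 21567 normalized RPKM.

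A few libraries stood apart. KO BMMC library 3 lay outside the range of the other 9 BMMC libraries for all 10 receptor genes, above it for 6 and below it for 4. KO CMP library 2 lay below all other CMP libraries for 5 receptor genes, and its erythroid and megakaryocyte markers summed to 3769 normalized RPKM against 1598 to 2566 in the others. Its macrophage and dendritic cell markers (619 against 192 to 377), basophil markers (75.3 against 23.4 to 58.9) and mast cell markers (129 against 87.9 to 123) were also above, and its stem cell markers (6.56 against 6.73 to 8.56) below, all other CMP libraries. WT GMP library 1 was below the other GMP libraries for 5 genes and above them for 1. It had the highest GMP markers (37616 against 25597 to 35561 normalized RPKM) and erythroid and megakaryocyte markers (131 against 57.8 to 125). Its B cell markers (0.0035 against 0.020 to 0.227) were the lowest, near the floor, with 2 of the 3 genes at 0 reads. KO GMP library 4 had the highest late neutrophil (5157 against 818 to 3297) and eosinophil markers (4441 against 1224 to 2421). Its macrophage and dendritic cell markers (489 against 278 to 438) were also highest, and its stem cell markers (2.66 against 2.92 to 3.54) lowest. The GMP and CMP libraries held 35501671 to 51497962 and 32078404 to 53264762 reads on genes, and the BMMC libraries 18627626 to 28647216. In bulk samples, fewer cells that express a receptor and less RNA per cell cannot be told apart.

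**Figure D1:**
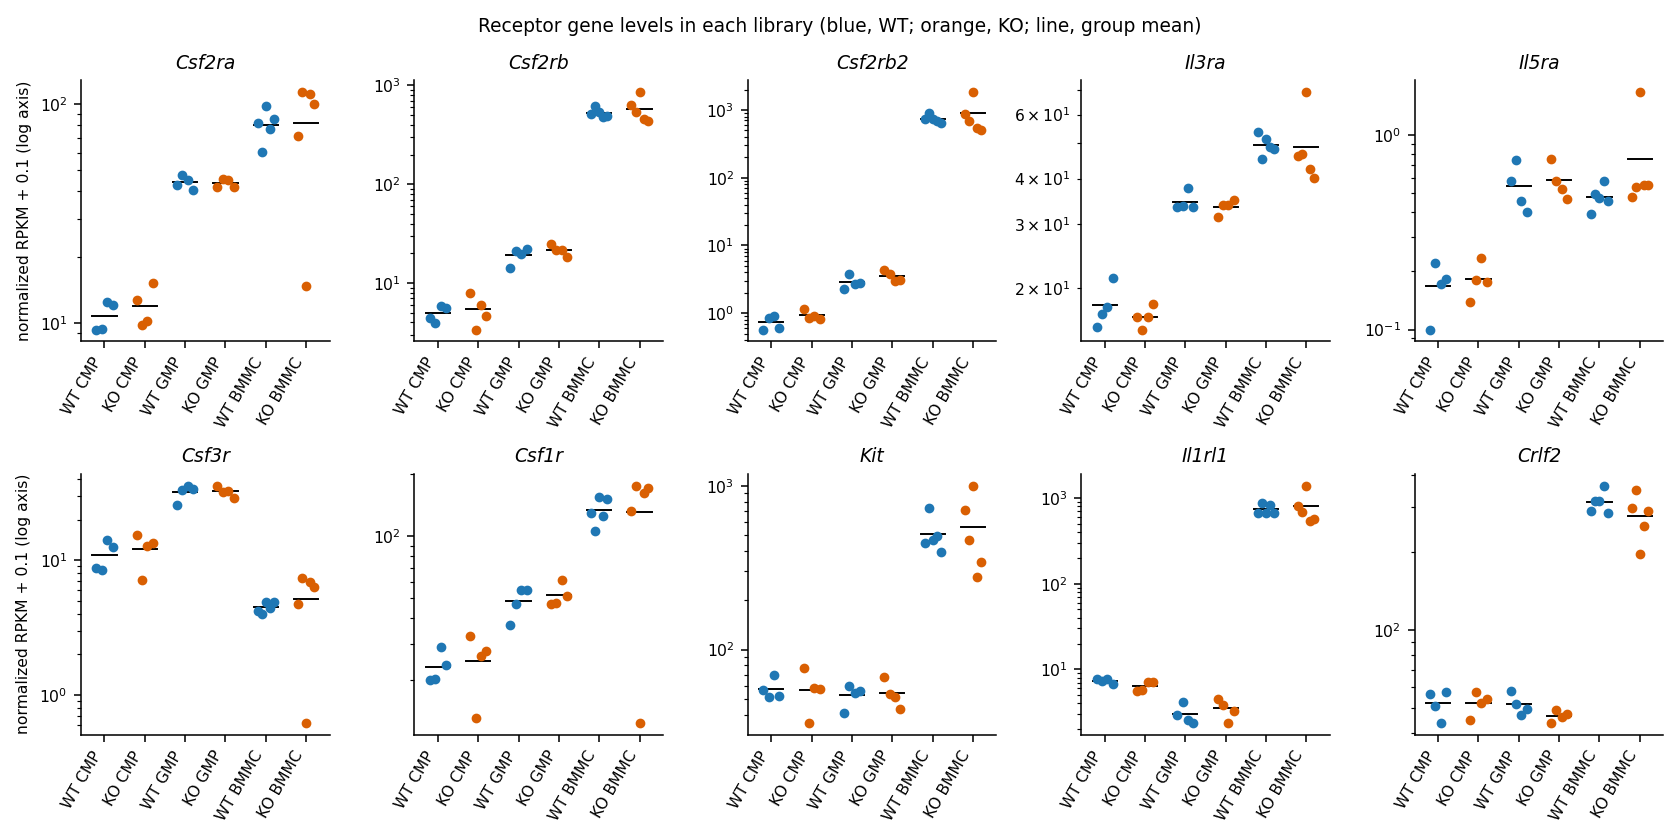
Normalized RPKM plus 0.1 of the 10 receptor genes on a log axis, 1 point per library and a line at the mean of each group. WT is blue and KO orange, and the genotypes overlap in every panel and cell type. The BMMC libraries lie above all progenitors for Kit, Csf2rb, Csf2rb2, Il1rl1 and Crlf2, and the WT BMMC libraries lie below all progenitors for Csf3r.

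Among the progenitors, the GM-CSF receptor chains were about 4-fold higher in GMPs than in CMPs. Csf2ra, the GM-CSF alpha chain, was at 9.23, 9.26, 12.3 and 12.05 normalized RPKM in WT CMP libraries 1 to 4 and at 42.8, 47.2, 44.7 and 40.4 in the WT GMP libraries. Its level was 12.6, 9.69, 10.1 and 15.1 in the KO CMP libraries and 41.6, 45.4, 45.0 and 41.7 in the KO GMP libraries. Every GMP library lay above every CMP library of either genotype. From CMPs to GMPs the log2 fold change was 2.05 (SE 0.14) in WT and 1.91 (SE 0.18) in KO. In separate edgeR fits of each genotype, with quasi-likelihood tests and p-values adjusted by the Benjamini-Hochberg method, adjusted p was 3.27e-06 and 1.65e-04. A gene was called changed where adjusted p was under 0.01 with at least a 2-fold difference, and Csf2ra was called in both.

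The shared beta chain moved with it. Csf2rb was at 4.39, 3.90, 5.75 and 5.48 normalized RPKM in the WT CMP libraries and at 14.2, 21.0, 19.4 and 21.8 in the WT GMP libraries, and at 7.77, 3.29, 5.85 and 4.50 in KO CMPs and 25.1, 21.5, 21.7 and 18.3 in KO GMPs. The groups did not overlap in either genotype, and the log2 fold changes were 1.99 (SE 0.18, adjusted p = 2.04e-05 from edgeR) in WT and 2.05 (SE 0.27, adjusted p = 8.51e-04) in KO. Csf2rb2, the IL-3-specific beta chain, was the lowest of the beta chains in progenitors, at 0.474, 0.742, 0.815 and 0.511 normalized RPKM in WT CMPs and 2.20, 3.65, 2.62 and 2.71 in WT GMPs. Its libraries did not overlap either, with log2 fold changes of 2.15 (SE 0.24, adjusted p = 7.57e-05 from edgeR) in WT and 2.08 (SE 0.21, adjusted p = 2.34e-04) in KO.

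The beta chains are close in sequence, which bears on their counts. Csf2rb (ENSMUSG00000071713) lies on the forward strand of chromosome 15 of GRCm38 from 78325752 to 78353847, and Csf2rb2 (ENSMUSG00000071714) beside it on the reverse strand from 78282507 to 78305721. Their coding sequences in the GENCODE annotation were identical at 2503 of 2628 aligned bases (95.2%), with a longest identical run of 242 bases. Of the 50-base windows of the Csf2rb transcript, the length of the reads, 892 of 4715 (18.9%) also occurred in the Csf2rb2 transcript. Such reads have no unique place, and the authors counted uniquely aligned reads, so reads from shared windows would be left out of both counts. A stretch of 120 coding bases of each gene is shown for how close the pair are, with the 6 bases that differ in capitals, for Csf2rb at chr15:78340480-78340599 on the forward strand and for Csf2rb2 at chr15:78292710-78292829 on the reverse strand, both from GRCm38.
Csf2rb: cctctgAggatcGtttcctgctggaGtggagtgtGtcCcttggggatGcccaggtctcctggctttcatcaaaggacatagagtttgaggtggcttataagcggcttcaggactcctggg
Csf2rb2: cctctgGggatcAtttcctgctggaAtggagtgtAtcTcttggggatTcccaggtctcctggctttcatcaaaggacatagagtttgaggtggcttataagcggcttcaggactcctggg

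The other alpha chains were also higher in GMPs. Il3ra, the IL-3 alpha chain, was at 15.6, 16.9, 17.7 and 21.3 normalized RPKM in WT CMPs and at 33.4, 33.5, 37.5 and 33.3 in WT GMPs, without overlap. Its log2 fold change of 0.96 (SE 0.12, adjusted p = 1.70e-04 from edgeR) in WT fell short of the 2-fold limit and that of 1.05 (SE 0.13, adjusted p = 6.72e-04) in KO passed it. Without WT CMP library 4 the WT value passed as well, at 1.07. Il5ra, the IL-5 alpha chain, was the least abundant receptor gene, with 0, 22, 16 and 12 reads in WT CMPs and 80, 139, 65 and 58 in WT GMPs. The KO CMP libraries had 9, 8, 31 and 11 Il5ra reads and the KO GMP libraries 141, 90, 76 and 51, and every GMP library had more than every CMP library.

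For Il5ra the log2 fold change from CMPs to GMPs was 2.59 (SE 0.43, adjusted p = 0.00278 from edgeR) in KO and 2.70 (SE 0.67, adjusted p = 0.0104) in WT, which missed the threshold. These calls turned on single libraries. The WT adjusted p was 0.00297 without WT CMP library 1, the library without Il5ra reads, and 0.00910 without WT GMP library 1, and the KO adjusted p was 0.0105 without KO CMP library 4, 0.0121 without KO GMP library 1 and 0.0106 without KO GMP library 2. GMPs also held the transcripts of granulocyte lineages. The 4 eosinophil markers (Epx, Prg2, Prg3 and Siglecf) summed to 1224 to 4441 normalized RPKM in GMPs and to 8.99 to 90.0 in CMPs, led by Prg2 in all GMP libraries, and the 3 basophil markers (Mcpt8, Prss34 and Cd200r3) to 1637 to 2499 against 23.4 to 75.3. The highest eosinophil sums were those of KO GMP library 4 and KO CMP library 4. In the other GMP and CMP libraries they were at most 2421 and 44.1. The part of the eosinophil and basophil markers in the Il5ra and Il3ra levels was not tested.

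The receptors for G-CSF and CSF-1 followed the same direction. Csf3r was at 8.72, 8.33, 14.0 and 12.4 normalized RPKM in WT CMPs and at 25.8, 33.2, 35.7 and 33.7 in WT GMPs, and at 15.2, 7.03, 12.7 and 13.2 in KO CMPs and 35.9, 32.0, 32.8 and 29.0 in KO GMPs. The groups were apart in both genotypes, with log2 fold changes of 1.58 (SE 0.19, adjusted p = 1.56e-04 from edgeR) in WT and 1.46 (SE 0.24, adjusted p = 0.00269) in KO. The KO call was lost without KO CMP library 3 or 4 or KO GMP library 1, 2 or 3, at adjusted p between 0.0103 and 0.0121. The 6 late neutrophil markers (Ltf, Camp, Ngp, Ly6g, S100a8 and S100a9) summed to 818 to 5157 normalized RPKM in GMPs, led by S100a8 or S100a9, and to 10.3 to 80.2 in CMPs, and their part in the Csf3r level was not tested. The highest of these sums were also those of KO GMP library 4 and KO CMP library 4. In the other GMP and CMP libraries they were at most 3297 and 45.0.

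Csf1r was at 19.8, 20.1, 28.7 and 23.6 normalized RPKM in WT CMPs and at 36.8, 46.8, 54.5 and 54.4 in WT GMPs, about 2-fold apart. In KO it was at 32.5, 12.9, 25.99 and 27.7 in CMPs and at 46.8, 47.1, 61.0 and 51.0 in GMPs, again without overlap. The log2 fold change was 1.08 (SE 0.17, adjusted p = 7.92e-04 from edgeR) in WT, and the similar value of 1.09 (SE 0.28, adjusted p = 0.0224) in KO was not called. The KO value was called without KO CMP library 1, at adjusted p = 0.00847, and the WT call was lost with library size in place of TMM (0.94) and with all 26 libraries in 1 fit (adjusted p = 0.0628). The macrophage and dendritic cell markers summed to 278 to 489 normalized RPKM in GMPs and to 192 to 619 in CMPs, led by Lyz2 in every library. Of these 12 markers 2 were called higher and 3 lower in WT GMPs than in WT CMPs, and 1 higher and 0 lower in KO. Their part in the Csf1r level was not tested.

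Kit and Crlf2 behaved otherwise. Kit was at 56.7, 51.5, 69.6 and 51.7 normalized RPKM in WT CMPs and at 40.7, 59.4, 54.1 and 55.5 in WT GMPs, and the groups overlapped (log2 fold change -0.11, SE 0.15, adjusted p = 0.576 from edgeR). Both populations were sorted on CD117, the protein of Kit, so the Kit values are given as a description of sorted cells. Crlf2, the TSLP receptor chain, was at 56.3, 50.8, 43.6 and 57.4 in WT CMPs and at 57.8, 51.8, 47.0 and 49.4 in WT GMPs, with a log2 fold change of 0.0046 (SE 0.12, adjusted p = 0.978).

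Il1rl1 was the receptor gene that fell from CMPs to GMPs in WT. It was at 7.55, 7.29, 7.67 and 6.67 normalized RPKM in WT CMPs and at 2.83, 4.01, 2.49 and 2.28 in WT GMPs, with no overlap and a log2 fold change of -1.31 (SE 0.17, adjusted p = 2.59e-04 from edgeR). In KO it was at 5.54, 5.57, 6.95 and 6.97 in CMPs and 4.41, 3.76, 2.27 and 3.15 in GMPs, likewise without overlap, but the log2 fold change of -0.84 (SE 0.22, adjusted p = 0.0229) was not called. The difference between the genotypes in this step was 0.46 (SE 0.28, adjusted p = 1.00 for the interaction in edgeR), so it was not shown to differ. The 7 erythroid and megakaryocyte markers summed to 1598 to 3769 normalized RPKM in CMPs and to 57.8 to 131 in GMPs. All 7 were called lower in WT and in KO, where 6.53% and 4.38% of all genes were. The 3 stem cell markers summed to 6.56 to 8.56 in CMPs and to 2.66 to 3.54 in GMPs, with 1 called lower in each genotype. Other lists went the other way. Of the mast cell markers, 5 of 5 tested were called higher in WT GMPs and 6 of 6 in KO GMPs. All 3 basophil markers were called higher in each genotype, as were most GMP, eosinophil and late neutrophil markers. Of all genes, 6.28% in WT and 4.04% in KO were called higher. The part of any of these markers in the Il1rl1 level was not tested.

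In all, 6 of the 10 receptor genes were called between WT GMPs and WT CMPs, 5 higher and 1 lower, where 12.8% of the 14967 genes tested were called (6.28% higher and 6.53% lower). In KO, 6 were called, all higher, against 8.42% of 14959 genes (4.04% higher and 4.38% lower). The same 8 receptor genes had libraries without overlap in WT and in KO, where 31.5% and 28.5% of all genes did. The median log2 fold change of the receptor genes was 1.33 in WT and 1.28 in KO, beside -0.024 and -0.029 over all genes tested. With library size in place of TMM the median over all genes in WT moved to -0.158, and 5 receptor genes were called in WT and 4 in KO. The background in KO depended on single libraries, with 829, 807 and 785 genes called without KO CMP library 3, KO GMP library 2 and KO GMP library 3, and 2266 without KO CMP library 1, against 1259 with all.

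**Figure D2:**
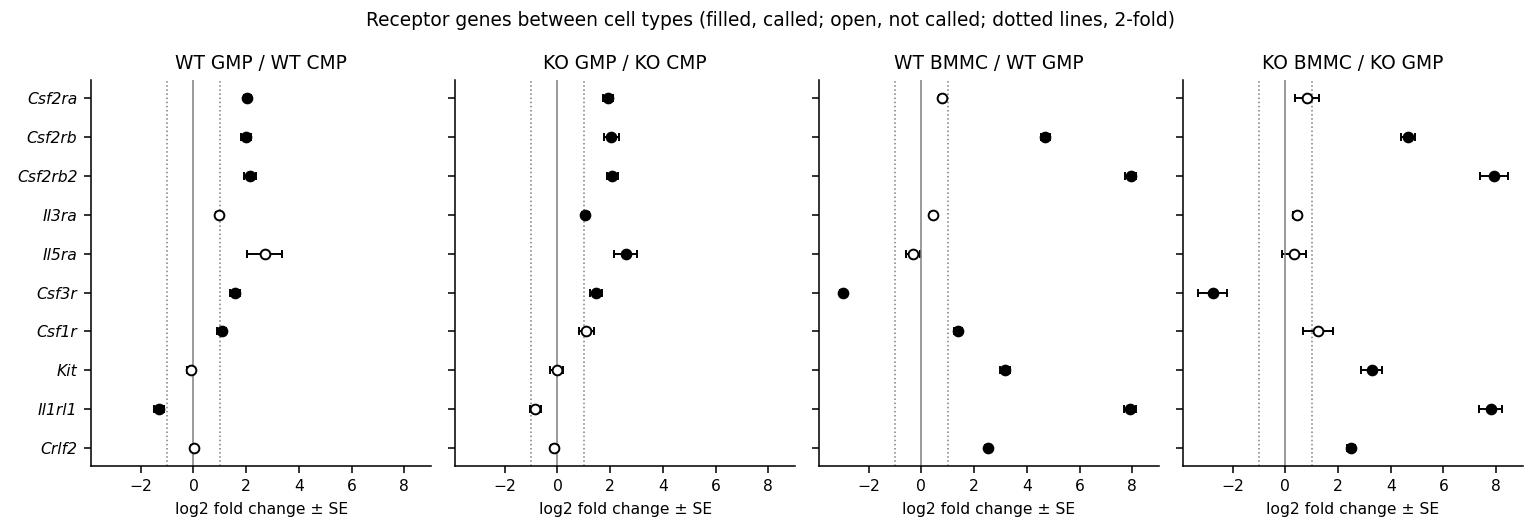
Log2 fold change ± SE of the 10 receptor genes from edgeR for GMPs over CMPs and BMMCs over GMPs in each genotype, with filled points for called genes and dotted lines at 2-fold. The GM-CSF receptor chains Csf2ra and Csf2rb lie near 2 between the progenitors in both genotypes, and Csf2rb2 and Il1rl1 lie near 8 between BMMCs and GMPs.

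The other genes of these pathways gave the surroundings. Of the 9 ligands, Csf1, the gene of CSF-1, was called between GMPs and CMPs, at 0.768 to 1.43 normalized RPKM in WT CMPs and 6.13 to 9.01 in WT GMPs (log2 fold change 2.72, SE 0.22, adjusted p = 8.05e-06 from edgeR), and at 2.67 (SE 0.29, adjusted p = 3.59e-04) in KO. Tslp was at 1.28 to 2.49 in WT CMPs and 1.72 to 3.73 in WT GMPs and was not called, and the other 7 (Kitl, Il34, Csf2, Csf3, Il3, Il5 and Il33) were too low to test, with at most 15 reads in any progenitor library. Neither partner chain was called, with Il1rap at 1.65 to 2.15 normalized RPKM in WT CMPs and 3.05 to 3.43 in WT GMPs, and Il7r at no more than 0.252 in any progenitor library. Of the 22 signalling genes, 2 rose in both genotypes and none fell, where 6.28% (WT) and 4.04% (KO) of all genes rose. Among them was Pik3cd, a catalytic subunit of PI 3-kinase (log2 fold change 1.35, SE 0.23, in WT and 1.30, SE 0.28, in KO).

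Of the 15 STAT5 targets and feedback genes, 2 rose and 1 fell in WT and 1 rose in KO, where 6.28% of all genes rose and 6.53% fell in WT and 4.04% and 4.38% in KO. Spry2, an inhibitor of receptor tyrosine kinase signalling, rose (log2 fold change 1.59, SE 0.17), as did Cbl, a ubiquitin ligase for activated receptors (1.45, SE 0.24), and Socs2, a suppressor of cytokine signalling, fell from 0.303 to 0.374 normalized RPKM in CMPs to at most 0.0346 in GMPs. The one that rose in KO was Spry2, at 1.94 (SE 0.27). Of the 18 other cytokine receptors tested, 3 rose and 4 fell in WT and 1 rose and 4 fell in KO, beside those same shares of all genes. Among those that fell in WT were Epor, the erythropoietin receptor (log2 fold change -4.23, SE 0.24), Flt3, a receptor of early progenitors (-2.65, SE 0.16), and Il1r1, an IL-1 receptor (-1.50, SE 0.17). Epor, Flt3 and Il1r1 also fell in KO, at -4.23 (SE 0.27), -2.63 (SE 0.29) and -1.30 (SE 0.26).

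BMMCs were then set beside the progenitors. Cell type, sex of the mice, sequencing run and culture differed together here and cannot be told apart, so the values describe these libraries only. The comparisons with WT BMMCs share those libraries, and those with WT or KO GMPs share them with the progenitor comparisons. Of the receptor genes, 7 were called between WT BMMCs and WT GMPs, 6 higher and 1 lower, where 51.7% of all 14754 genes tested were called (27.3% higher and 24.4% lower). In KO, 6 were called, 5 higher and 1 lower, against 47.9% of genes (25.6% higher and 22.3% lower). Between WT BMMCs and WT CMPs all 10 were called, 9 higher and Csf3r lower, where 57.5% of all genes were (29.6% higher and 27.9% lower). Libraries did not overlap for 9, 7 and 10 receptor genes in these comparisons, and for 75.3%, 65% and 76.9% of all genes.

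The beta chains and ST2 showed the widest gaps. Csf2rb2 was at 735, 887, 729, 680 and 642 normalized RPKM in WT BMMCs and at 872, 691, 1832, 550 and 515 in KO BMMCs, where no GMP library exceeded 4.20. Its log2 fold change over GMPs was 7.94 (SE 0.20, adjusted p = 2.89e-11 from edgeR) in WT and 7.92 (SE 0.52, adjusted p = 9.24e-07) in KO. From the lower of the beta chains in progenitors it became the higher one in all 10 BMMC libraries, per length. Csf2rb was at 517, 627, 539, 484 and 493 in WT BMMCs and 631, 537, 856, 461 and 438 in KO BMMCs, a log2 fold change of 4.71 (SE 0.16) in WT and 4.66 (SE 0.25) in KO.

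Il1rl1 was at 674, 887, 672, 821 and 675 normalized RPKM in WT BMMCs and at 814, 684, 1401, 536 and 573 in KO BMMCs. Its log2 fold change over GMPs was 7.91 (SE 0.23, adjusted p = 5.45e-11 from edgeR) in WT and 7.79 (SE 0.44, adjusted p = 3.53e-07) in KO. Kit was at 447, 734, 464, 490 and 392 in WT BMMCs and at 710, 469, 1002, 277 and 341 in KO BMMCs, a log2 fold change of 3.18 (SE 0.20) and 3.28 (SE 0.40). Crlf2 rose by 2.51 (SE 0.11) and 2.48 (SE 0.16) on this scale, to 283 to 363 in WT and 197 to 349 in KO. All BMMC libraries lay above all progenitor libraries for these 5 genes.

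Windows upstream of annotated starts are shown for Csf2rb2 and Il1rl1, the receptor genes with the widest gap to GMPs. They were taken from RefSeq (GRCm38.p6), as the 250 bases before each start. The letters GATAA, known from binding sites of GATA factors, were searched on both strands, as were GAGGAA, known from sites of PU.1, and TTNNGCAA, known from sites of C/EBP factors. Matches are in capitals, and no match in these windows overlapped another. Of all 32851 promoter windows, 22.6% held GATAA, 23.3% GAGGAA and 9.56% TTNNGCAA. Il1rl1 has 2 starts in the table, at chr1:40429320-40429569 and chr1:40439379-40439628 on the forward strand, and reads counted per gene do not tell them apart. The Csf2rb2 window is chr15:78305722-78305971 on the reverse strand. A match is a run of letters and not evidence of a bound site.
Il1rl1 first start: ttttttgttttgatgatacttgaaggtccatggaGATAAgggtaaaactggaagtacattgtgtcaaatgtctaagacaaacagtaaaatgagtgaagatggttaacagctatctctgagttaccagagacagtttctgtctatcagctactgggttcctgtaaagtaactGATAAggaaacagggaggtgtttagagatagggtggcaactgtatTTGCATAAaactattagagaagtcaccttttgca
Il1rl1 second start: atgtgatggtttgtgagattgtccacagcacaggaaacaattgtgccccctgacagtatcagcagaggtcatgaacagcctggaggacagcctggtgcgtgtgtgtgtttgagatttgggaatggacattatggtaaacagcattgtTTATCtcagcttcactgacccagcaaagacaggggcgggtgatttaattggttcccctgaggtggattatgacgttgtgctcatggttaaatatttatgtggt
Csf2rb2: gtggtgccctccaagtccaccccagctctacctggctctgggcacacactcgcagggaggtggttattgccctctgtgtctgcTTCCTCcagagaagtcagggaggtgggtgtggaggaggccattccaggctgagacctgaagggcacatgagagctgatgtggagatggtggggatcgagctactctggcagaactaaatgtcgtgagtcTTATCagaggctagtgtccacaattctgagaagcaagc

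The first Il1rl1 window held 2 GATAA matches and 1 TTNNGCAA match, the second 1 GATAA match, and the Csf2rb2 window 1 match of GATAA and 1 of GAGGAA. Windows of 8 receptor genes were searched, without Csf1r and Csf2rb. Of these genes, 3 held GATAA, 5 GAGGAA and 2 TTNNGCAA. Of their 10 windows, 4, 6 and 2 did, beside 22.6%, 23.3% and 9.56% of all windows. The Kit windows overlap and share their match. A difference from those shares was not tested.

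The alpha chains differed less between BMMCs and GMPs. Il3ra was at 53.6, 45.1, 51.1, 48.7 and 48.3 normalized RPKM in WT BMMCs, above all WT GMPs, yet its log2 fold change of 0.43 (SE 0.08, adjusted p = 4.19e-04 from edgeR) was below the 2-fold limit. Csf2ra was at 81.6, 60.7, 97.6, 76.9 and 85.1, a log2 fold change of 0.78 (SE 0.12, adjusted p = 8.59e-05), also below it. Il5ra had 22 to 38 reads in the WT BMMC libraries, and its log2 fold change of -0.33 (SE 0.26, adjusted p = 0.261) was not called. In WT BMMCs the beta chains were thus far above GMP levels, and the fitted values of the alpha chains were within 2-fold of them.

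Csf3r was the receptor gene lower in BMMCs than in progenitors, at 4.09, 3.88, 4.81, 4.29 and 4.80 normalized RPKM in WT BMMCs, below every progenitor library. The log2 fold change was -2.97 (SE 0.11, adjusted p = 3.85e-10 from edgeR) against WT GMPs and -1.40 (SE 0.16, adjusted p = 2.46e-06) against WT CMPs. In KO BMMCs it was at 4.61, 7.28, 0.517, 6.85 and 6.18, a log2 fold change of -2.76 (SE 0.54, adjusted p = 0.0011) against KO GMPs, whose call was lost with replicate number as a block (adjusted p = 0.0110).

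Csf1r, the macrophage receptor, was at 130, 106, 156, 125 and 151 normalized RPKM in WT BMMCs, above every GMP library, with a log2 fold change of 1.38 (SE 0.15, adjusted p = 2.47e-06 from edgeR). In KO BMMCs it was at 132, 176, 12.3, 162 and 171, where library 3 lay below all GMP libraries, and the log2 fold change of 1.25 (SE 0.58, adjusted p = 0.0762) was not called. Without that library it was 1.55 with adjusted p = 6.35e-07, and Csf2ra passed as well, at 1.10 with adjusted p = 1.83e-05. Lyz2, lysozyme of macrophages and other myeloid cells, was the most abundant of the macrophage and dendritic cell markers in all BMMC libraries, at 978 normalized RPKM in KO BMMC library 3 and 9432 to 18667 in the others. The part of such cells in the Csf1r level was not tested. Csf1r (ENSMUSG00000024621) shares 873 bases, 15.1% of its exon bases, with Hmgxb3 on the opposite strand, and whether the counts used strand is not given in the sources used here.

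Pathway genes in BMMCs were as follows. The partner chain Il7r was at 13.6 to 19.1 normalized RPKM in WT BMMCs (log2 fold change over WT GMPs 7.01, SE 0.25, adjusted p = 2.02e-10 from edgeR), with 81 reads in KO BMMC library 3, while Il1rap was not called at 2.19 to 2.74. Among the ligands, Csf1 was at 32.0 to 38.1 (log2 fold change 2.24, SE 0.13), and Csf2, GM-CSF, had 41 to 102 reads in the WT BMMC libraries and 0 in every progenitor library. Kitl, stem cell factor, had 45 to 179 reads in WT BMMCs and at most 3 in WT GMPs, and Tslp was lower, with 1 to 7 reads. Of the 15 STAT5 targets and feedback genes, 12 rose in WT and 11 in KO and none fell, where 27.3% (WT) and 25.6% (KO) of all genes rose and 24.4% and 22.3% fell. Cish, Socs2, Socs3 and Osm were at 130 to 145, 22.6 to 25.5, 32.3 to 42.7 and 252 to 354 normalized RPKM in WT BMMCs, and at no more than 0.946, 0.0346, 0.387 and 2.94 in WT GMPs. Cish, Socs2 and Socs3 are feedback inhibitors induced by cytokine signals and Osm is a cytokine. The median over the list was 2.60 in WT and 2.93 in KO, beside -0.0045 and 0.034 over all genes.

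Of the 22 signalling genes, 7 rose in each genotype and none fell, where 27.3% (WT) and 25.6% (KO) of all genes rose. The largest changes were of the adaptor Gab2 (log2 fold change 3.11, SE 0.15, in WT) and the kinase Jak2 (2.29, SE 0.15), which binds the beta chains. Of the 19 other cytokine receptors tested, 9 rose and 6 fell in WT, where 27.3% of all genes rose and 24.4% fell. Il9r, the IL-9 receptor, was at 12.7 to 28.1 normalized RPKM in WT BMMCs and at most 0.0800 in WT GMPs, Il4ra, the IL-4 receptor, at 166 to 185 against 8.73 to 11.3, and Il13ra1, an IL-13 receptor, at 2.35 to 4.24 against at most 0.154. Flt3 was at most 0.182 in WT BMMCs and 4.33 to 6.52 in WT GMPs. In KO, 9 rose and 3 fell, where 25.6% and 22.3% of all genes did.

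Loss of NSP4 was then compared within each cell type, where both genotypes were sequenced together. In GMPs, CMPs and BMMCs 0 of the 10 receptor genes were called by edgeR and 0 had an unadjusted p under 0.05. Of all genes, 0.00681%, 0.0067% and 0% were called, the 1 gene in GMPs and the 1 in CMPs being Prss57, and 0.81%, 0.51% and 2.38% had an unadjusted p under 0.05. The libraries of the 2 genotypes overlapped for all 10 receptor genes in each cell type, and 0.994%, 0.818% and 0.717% of all genes had libraries that did not overlap. Limma voom, voom with quality weights and DESeq2 called 0 of them as well. In the edgeR fits described above all adjusted p-values of the receptor genes were 1.00, and the lowest over the alternatives that kept every library was 0.531, for Csf3r in CMPs.

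In GMPs the log2 fold changes of KO over WT lay between -0.15 for Crlf2 and 0.31 for Csf2rb2, 7 above 0 and 3 below, with SEs of 0.09 to 0.29. In CMPs they lay between -0.24 for Il1rl1 and 0.38 for Csf2rb2, with SEs from 0.14 to 0.84, the largest for Il5ra. The Il5ra value in CMPs was 0.23 here and ranged from 0.15 to 2.03 over the alternatives that kept every library, without a call. In BMMCs the log2 fold changes lay between -0.18 for Crlf2 and 0.77 for Il5ra, with SEs of 0.14 to 0.52. The medians over the receptor genes were 0.071, 0.105 and 0.117, beside 0.0010, 0.033 and 0.0084 over all genes. Each median turned below 0 with 1 library left out, to -0.013 without WT GMP library 1, -0.047 without KO CMP library 1 and -0.063 without KO BMMC library 3. In BMMCs it was also -0.010 by voom with quality weights and -0.016 with the replicate number as a block. The interaction of genotype with cell type in GMPs and CMPs was called for 0 of the 10 and for 0 of 15900 genes (unadjusted p under 0.05 for 1.06% of genes by edgeR and for 0 receptor genes).

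Single genes were also compared by exact two-sided permutation tests on normalized RPKM. For Csf2rb2, with 2.79 ± 0.611 normalized RPKM in WT GMPs and 3.45 ± 0.635 in KO GMPs (SD, n = 4 each), the exact permutation p was 0.143, and for Kit, with 52.4 ± 8.14 and 54.0 ± 10.5, the exact p was 0.886. With all libraries kept, the lowest exact p among the genotype comparisons of all 10 receptor genes in GMPs, CMPs and BMMCs was 0.0857, for Crlf2 in GMPs (51.5 ± 4.66 in WT and 46.4 ± 2.18 in KO) and for Il1rl1 in CMPs (7.29 ± 0.445 and 6.26 ± 0.808). The smallest p that 4 libraries against 4 allow is 0.0286. Approximate 95% intervals of the KO over WT log2 fold change were taken from the SE by a normal approximation. With so few libraries they are narrower than the edgeR tests imply. In GMPs the interval was -0.22 to 0.25 for Csf3r, -0.34 to 0.04 for Crlf2 and -0.05 to 0.66 for Csf2rb2. In CMPs it was -1.41 to 1.88 for Il5ra, which holds a 2-fold difference in either direction. In BMMCs it was -0.032 to 1.57 for Il5ra and -0.75 to 1.18 for Csf3r, which hold a 2-fold higher level in KO. For Csf1r in BMMCs it was -1.06 to 0.98, which holds a 2-fold lower level. A slightly wider interval would hold a 2-fold higher one too. Without KO BMMC library 3 the BMMC log2 fold changes of Il5ra, Csf3r and Csf1r were 0.18 (SE 0.19), 0.50 (SE 0.13) and 0.26 (SE 0.12). None of the ligands, partner chains, signalling genes, STAT5 targets and feedback genes and other cytokine receptors tested was called between genotypes in any cell type.

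**Figure D3:**
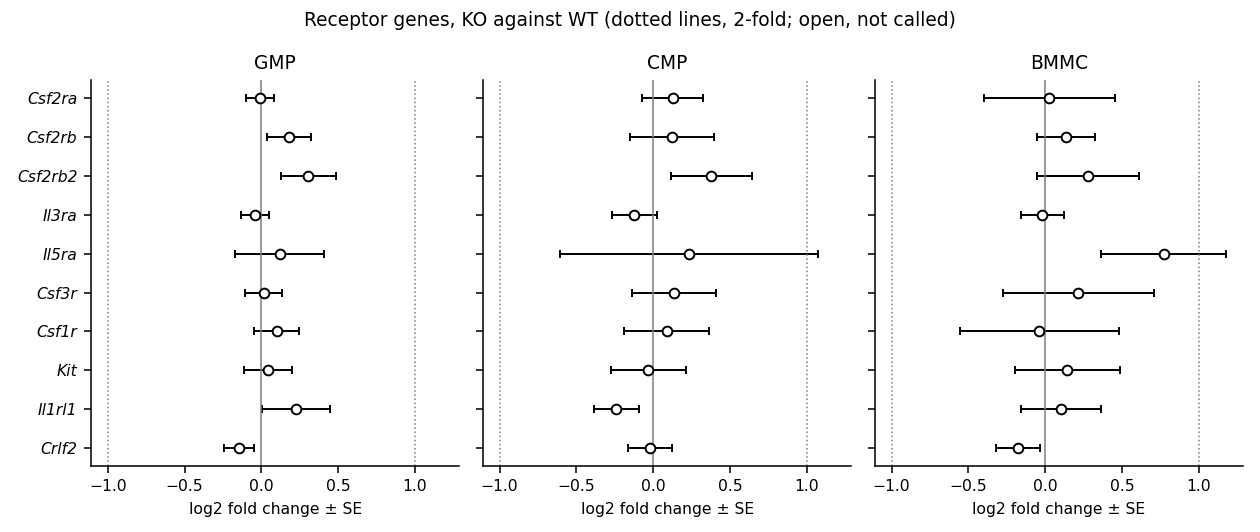
Log2 fold change ± SE of KO over WT for the 10 receptor genes in GMPs, CMPs and BMMCs, from edgeR, with dotted lines at 2-fold. All points are open, for 0 genes called, and the values lie between -0.24 and 0.77.

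One KO BMMC library decided much of the spread in BMMCs. KO BMMC library 3 held Kit at 1002, Csf2rb at 856, Csf2rb2 at 1832, Il1rl1 at 1401, Il3ra at 69.0 and Il5ra at 1.55 normalized RPKM, each above the other 9 BMMC libraries. It held Csf1r at 12.3, Csf2ra at 14.7, Csf3r at 0.517 and Crlf2 at 197, each below them. The 7 mast cell markers summed to 74376 normalized RPKM in this library against 24714 to 45994 in the others, with Cpa3, a mast cell protease, the most abundant at 29822. The 12 macrophage and dendritic cell markers summed to 1180 against 11393 to 21567. Of them 11 lay below the range of the other BMMC libraries, and Cd209a had 0 reads here and at most 0.143 normalized RPKM in the others. Most other marker lists also lay outside the range of the other 9 libraries. The summed basophil (338.5 against 457 to 835 normalized RPKM), late neutrophil (25.3 against 41.8 to 180) and stem cell markers (8.12 against 12.2 to 18.9) were below it. The GMP (1516 against 894 to 1416), eosinophil (6.99 against 2.73 to 5.71) and B cell markers (0.159 against 0.0079 to 0.056) were above it, and the erythroid and megakaryocyte markers were within it, at 1159 against 849 to 1181. The B cell values were near the floor, and 0 of the 3 genes had enough reads to be tested between genotypes in BMMCs. The part of any of these in the receptor levels was not tested.

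Without KO BMMC library 3, the KO over WT comparison in BMMCs still gave 0 calls for receptor genes and for all genes by edgeR. The log2 fold changes lay between -0.20 for Il1rl1 and 0.50 for Csf3r. Csf3r had a log2 fold change of 0.50 (SE 0.13, unadjusted p = 0.00212, adjusted p = 0.422), at 6.23 ± 1.17 normalized RPKM in the 4 remaining KO libraries and 4.37 ± 0.420 in the 5 WT libraries (SD), and their ranges overlapped. Il3ra was at -0.18 (SE 0.07, unadjusted p = 0.0237, adjusted p = 0.625). The exact permutation p on normalized RPKM was 0.0476 for each of these genes, against 0.627 for Csf3r and 0.960 for Il3ra with the library kept. In that comparison 7.28% of all genes had an unadjusted p under 0.05. For Csf1r, Csf2rb, Csf2rb2, Il1rl1 and Kit the sign of the fold change turned when the library was left out, none of them called in either case.

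**Figure D4:**
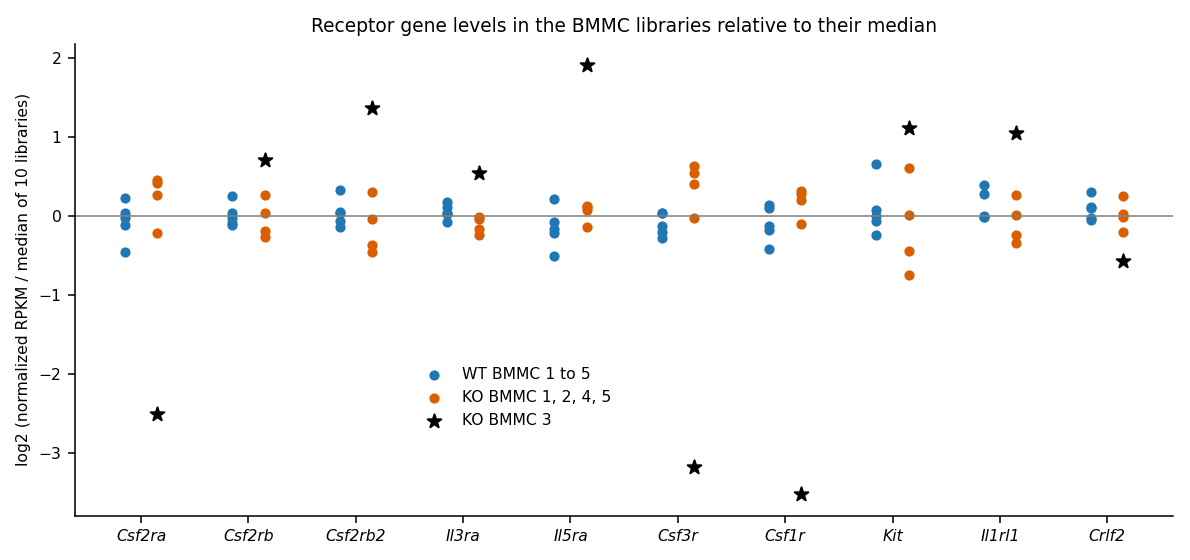
Log2 ratio of normalized RPKM to the median of the 10 BMMC libraries for each receptor gene, with WT libraries in blue, KO libraries 1, 2, 4 and 5 in orange and KO library 3 as a star. The star lies outside all other points for each of the 10 genes, below them for Csf1r, Csf2ra, Csf3r and Crlf2.

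Across the 6 groups the receptor genes fell into a few orders of level. Of 50 pairs of neighbouring groups 16 had libraries without overlap and 34 had libraries that overlapped. An overlap does not show that groups are alike. That of Csf1r between KO BMMCs and KO GMPs came from KO BMMC library 3. All neighbouring pairs without overlap were of 2 cell types. The means of Csf2ra, Csf2rb, Csf2rb2 and Il3ra increased from CMPs to GMPs to BMMCs with such a break at each step, although KO BMMC library 3 lay below all GMP libraries for Csf2ra. Kit and Crlf2 had a single break between BMMCs and the progenitors, and Il1rl1 was lowest in GMPs. With p-values adjusted over the 50 pairs, the smallest was 0.0882 (exact permutation tests), so that no single pair passed 0.05 in this design.

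The genes most like each receptor gene were taken by Pearson's r of log2(normalized RPKM + 0.1) over the 16 progenitor libraries, which share a sequencing run and fall into 2 cell types, among 11438 genes with a mean of at least 100 reads (11439 for Il5ra, which was below that mean itself). For Csf3r they were Gys1 (r = 0.996), Cebpa (0.9952), a transcription factor of granulocyte development, and Nav2 (0.994). For Csf2ra they were Gsr, Arsb and Nucb2 (0.994 to 0.993), for Csf2rb Rnf19b, Sorl1 and Fes (0.994 to 0.993), for Csf1r Arhgef10l and Egln1 (both 0.990), for Csf2rb2 Acp2, Arhgap19 and Aatk (0.987 to 0.983) and for Il3ra Nt5dc2, Tcn2 and the basophil protease Prss34 (all 0.988). Il5ra was closest to Nebl (0.971), to Ms4a2 (0.969), the beta chain of the IgE receptor, and to Egln3 (0.967), and Il1rl1 to Mylk3, Angpt1 and Slc18a2 (0.962 to 0.958), the last a transporter of amines into granules. Kit was closest to Arhgef40, Itga6 and Tut7 (0.961 to 0.960). The r of the closest genes was lowest for Crlf2 (Gm5835, Ddrgk1 and Fkbpl, 0.897 to 0.869).

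In GRCm38 with the GENCODE annotation, all 10 are protein-coding genes, each counted over its exons. Kit lies on chromosome 5 from 75574916 to 75656722, Crlf2 on chromosome 5 from 109554709 to 109558993 and Csf1r on chromosome 18 from 61100598 to 61132149. Csf2ra lies on chromosome 19 from 61223957 to 61228429, Csf3r on chromosome 4 from 126024550 to 126044440 and Il3ra on chromosome 14 from 14346275 to 14356011. Il5ra lies on chromosome 6 from 106710357 to 106749037 and Il1rl1 on chromosome 1 from 40429570 to 40465415.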

How the data were processed

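RNA sequencing libraries of total RNA were aligned by the authors to GRCm38 with GSNAP in HTSeqGenie, and uniquely aligned reads within exons were counted. The deposited counts per gene were used as given, without normalization, and the deposited RPKM had been divided by the authors' size factors. Symbols and positions were taken from GENCODE, to which 52403 of 52636 genes were matched. Counts were tested in R 4.3.3 with edgeR 4.0.16 (TMM, filterByExpr, robust quasi-likelihood test) on the groups compared alone, over all genes tested, with Benjamini-Hochberg adjustment. Changes were called where adjusted p was below 0.01 with at least a 2-fold difference, and interactions by the p alone. Single genes were compared on RPKM with exact two-sided permutation tests in Python 3.11.15 with scipy 1.17.1. Alternatives were limma 3.58.1 voom with and without quality weights, DESeq2 1.42.0, RLE factors, library size, filters that kept genes with a single count (minimum 1) or with a minimum of 10 counts throughout, dispersion without robust fitting, a replicate block, all 26 libraries in 1 fit, an adjusted p under 0.05 without a fold limit, and each library left out. The receptor genes, lists and tests were chosen with earlier results of these data known. Named are all receptor genes, ligands, partner chains and markers, up to 4 called genes with the largest change per list and comparison, and the 3 genes most like each receptor gene. Some genes that this rule names are not reported here. The study calls the GMP and BMMC libraries biological replicates. Its legend for Prss57 by RNA sequencing gives 4 biological replicates per genotype without naming the cell types, which may cover the CMPs. The labels name no animal or culture, so p-values measure the spread between these libraries. Depths are given with the results, and counting error alone is covered by read numbers.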

Additional observations from a re-analysis of the deposited data

Results flagged for a closer look

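Of the 60 groups of 4 or 5 libraries (10 receptor genes in 6 groups), 6 held a library whose gap to its nearest neighbour was large for the range of its group, where chance alone gives about 1 in 20. In KO BMMC library 3 this held for 4 genes. Csf1r was at 12.29 normalized RPKM against 131.8 in the nearest library, Csf2rb2 at 1832 against 872.1, Il3ra at 69.04 against 46.75 and Il5ra at 1.553 against 0.4539. The values of this library for mast cell and macrophage markers are given with the results, and their part was not tested. In WT BMMC library 2, Kit was at 734.0 against 490.5 in the nearest library. In WT GMP library 3, Il3ra was at 37.49 against 33.45. The interaction of genotype and cell type passed the threshold for none of the receptor genes (edgeR, lowest unadjusted p = 0.117 for Il1rl1).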

How the results depend on the processing

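No receptor gene was called between genotypes under any alternative or with any library left out. The number of receptor genes called was 5 to 8 between WT GMPs and CMPs, 4 to 8 in KO, 7 to 9 between WT BMMCs and GMPs, 5 to 8 in KO and 9 to 10 between WT BMMCs and CMPs. The number of genes called moved more. At an adjusted p under 0.05 without a fold limit it was 5664 in place of 1918 of 14967 genes for WT GMPs over CMPs. In KO it was 3222 in place of 1259 of 14959. For BMMCs over GMPs it was 12030 in place of 7630 of 14754 in WT and 11032 in place of 7150 of 14929 in KO. For KO over WT GMPs it was 2 in place of 1 of 14689. The 9 receptor genes between WT BMMCs and GMPs were called under this rule, where most genes were. Voom with quality weights gave 3391 and 2530 genes for GMPs over CMPs in WT and KO and 2 each for genotype in GMPs and CMPs. DESeq2 gave 2156 in KO and 2 and 3 for genotype, all 26 libraries in 1 fit gave 2307 in KO, and at least 10 counts in every library gave 0 for genotype in both and left Il5ra untested beside CMPs. With each library left out, 785 to 2266 genes were called in KO GMPs over CMPs and 1 to 2 for genotype in GMPs. Library size in place of TMM gave 764 higher and 1228 lower genes against 940 and 978 in WT GMPs over CMPs, and 408 and 701 against 604 and 655 in KO. It moved the median of all genes to -0.19 and -0.18 for BMMCs over GMPs in WT and KO and to -0.31 for WT BMMCs over CMPs.

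Calls of some single receptor genes changed, and the cause was not tested. Csf1r in WT GMPs over CMPs was lost with library size (0.94) and with all 26 libraries (adjusted p = 0.0628), and Csf3r and Il3ra in KO with library size (1.38 and 1.00). Il5ra in WT was called by DESeq2 (2.72), voom with quality weights (4.01), at least 1 count in any library (2.74), non-robust dispersion (2.70) and all 26 libraries (2.68). Il3ra in WT was called by voom with quality weights (1.06) and with at least 1 count (edgeR adjusted p = 3.86e-05), and Csf1r in KO GMPs over CMPs by DESeq2 (adjusted p = 0.00154). In KO BMMCs over GMPs, voom with quality weights called Csf1r (adjusted p = 8.14e-05) and Csf2ra (0.00066), and the fit of all 26 libraries called Csf1r (0.00903). Directions turned for small, uncalled values. Voom with quality weights gave Csf1r -0.069, Csf2ra 0.046, Csf3r -0.072 and Kit -0.036 for genotype in GMPs, Kit 0.053 in CMPs, and Csf1r 0.18, Csf2rb -0.018, Csf2rb2 -0.11, Il1rl1 -0.12 and Kit -0.094 in BMMCs. It gave Crlf2 -0.10 and Kit 0.042 for WT GMPs over CMPs and Il5ra -0.23 for KO BMMCs over GMPs. Robust voom gave Csf2ra -0.28 and Csf3r -0.11 for genotype in BMMCs and Kit 0.0088 for KO GMPs over CMPs. Crlf2 in WT GMPs over CMPs was -0.13 with library size, -0.012 with at least 10 counts and -0.011 with all 26 libraries, and the interaction of Csf1r was -0.0047 with RLE factors.

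With each library left out, values of uncalled genes crossed 0. For genotype in GMPs the ranges were -0.0064 to 0.17 (Csf1r), -0.038 to 0.033 (Csf2ra), -0.074 to 0.077 (Csf3r), -0.061 to 0.010 (Il3ra), -0.049 to 0.36 (Il5ra) and -0.078 to 0.14 (Kit). In CMPs they were -0.11 to 0.025 (Crlf2), -0.083 to 0.30 (Csf1r), -0.13 to 0.29 (Csf2rb), -0.010 to 0.32 (Csf3r), -0.17 to 0.65 (Il5ra) and -0.23 to 0.14 (Kit). In BMMCs they were -0.16 to 0.26 (Csf1r), -0.11 to 0.30 (Csf2ra), -0.048 to 0.22 (Csf2rb), -0.17 to 0.42 (Csf2rb2), -0.20 to 0.22 (Il1rl1), -0.18 to 0.045 (Il3ra) and -0.18 to 0.32 (Kit). For GMPs over CMPs they were -0.046 to 0.068 (Crlf2) and -0.17 to 0.023 (Kit) in WT and -0.21 to 0.15 (Kit) in KO, and for KO BMMCs over GMPs -0.26 to 0.53 (Il5ra). For the interaction they were -0.22 to 0.18 (Csf1r), -0.13 to 0.30 (Csf2rb), -0.21 to 0.089 (Csf2rb2), -0.32 to 0.022 (Csf3r), -0.010 to 0.14 (Il3ra), -0.51 to 0.29 (Il5ra) and -0.11 to 0.27 (Kit).

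The replicate numbers were not shown to pair the libraries. The lowest correlation of deviations between libraries with the same number was -0.23 for WT GMPs and CMPs, -0.02 in KO, and -0.60, -0.36 and -0.37 between genotypes in GMPs, CMPs and BMMCs. The means over same-numbered pairs were 0.18, 0.31, -0.055, 0.28 and -0.084, against -0.11, -0.10, 0.034, -0.12 and 0.044 for different numbers, and 1, 2, 1 and 3 of 4 libraries and 1 of 5 correlated best with their own number. With the replicate block, Csf2ra was -0.16 and Csf3r -0.042 for genotype in BMMCs, Kit was 0.0033 for KO GMPs over CMPs, and Csf3r in KO BMMCs over GMPs was -3.19 (edgeR adjusted p = 0.0110).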
